A study of Mus musculus with 12 samples.

Results

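Astrocyte marker genes, the 33 genes treated here, were taken as a list of genes known to be enriched in brain astrocytes. The list was chosen with earlier results of these data known, so its shares against all tested genes are descriptions only. All 33 were found among the 55421 genes of the count table, and all 33 passed the filter on low counts, which left 20015 genes for testing. They are ordered below by role: 5 identity genes, 8 transporters and channels, 3 junction genes, 5 metabolic genes, 3 metallothioneins, 4 receptors and surface proteins, and 5 secreted or matrix genes.

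PolyA RNA was sequenced in 12 libraries from the prefrontal cortex of wild-type male C57BL/6 mice aged 10 to 12 weeks, in 4 groups of 3: PL Dex, PL saline, IL Dex and IL saline. PL and IL are the prelimbic and infralimbic areas of the medial prefrontal cortex. All mice had been fear conditioned, with a tone paired 3 times with a 0.7 mA foot shock, and mice that froze too little at the end of training had been excluded. Dex mice were injected intraperitoneally with dexmedetomidine, a sedative agonist of alpha2 adrenergic receptors, at 40 µg/kg in 10 ml/kg, saline mice with the same volume of normal saline, and tissue came from 2 h after training. The libraries are bulk tissue, labelled only as brain, so fewer astrocytes and less RNA per astrocyte cannot be told apart. The labels do not say whether the libraries of a group, or the PL and IL libraries of 1 sample number, came from separate mice; the p-values therefore reflect sample-to-sample spread that may be technical. The extraction notes name PL tissue for every sample, whereas 6 titles name IL; here the titles were used. The labels also give a batch number, 1 to 3, which equals the sample number; differences within a batch are given on the log2(CPM + 0.5) scale.

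Astrocytes take up synaptic glutamate and GABA, convert glutamate to glutamine, buffer potassium and bicarbonate, and contact blood vessels with endfeet that carry water channels. They are coupled into networks by gap junctions, and they carry alpha2 adrenergic receptors, so the drug can act on them as well as on neurons. Many of the genes that mark them are transcribed at lower levels elsewhere in the brain: neurons also transcribe Slc1a2 and Sparcl1, vessel cells Id3 and the metallothioneins, and oligodendrocyte lineage cells Bcan and Fgfr3.

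Library totals ran from 5419187 to 16530596 counts, and the 33 genes together took 0.95% to 1.13% of them. The regions separated along the first principal component of the tested genes (35.8% of the variance), while the PL libraries formed 2 sets that cross treatment, with PL Dex 3, PL saline 2 and PL saline 3 lying further from IL than PL Dex 1, PL Dex 2 and PL saline 1. The libraries also differed in how counts depended on the GC content of the gene. Relative to the mean of all libraries, log2 levels changed per 10 percentage points of GC by 0.121, 0.0973 and −0.0667 in PL Dex, by −0.252, −0.308 and −0.0713 in PL saline, and by −0.00954 to 0.19 in the IL libraries. Across the tested genes, Spearman's rho between GC content and the log2 fold change was 0.549 for Dex against saline in PL and −0.434 for PL against IL in saline mice, against −0.0374 for Dex against saline in IL and −0.0516 for PL against IL in Dex mice; genes are not independent replicates, so no p is given. The median GC content of the 33 markers was 51.9%, against 48.4% for the tested genes. With a GC correction, the log2 fold change moved by over 1.5 times or changed sign for 25 of 33 markers for Dex against saline in PL, for 9 in IL, for 3 between the regions in Dex mice and for 21 in saline mice. Values with the GC correction are given below where it moved a named marker that much for Dex in PL or for region in saline mice.

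Levels are CPM, counts scaled to the size of the library, listed in the order of samples 1, 2 and 3 of a group. Divided by exon length, the most abundant marker was the glutamate transporter gene Slc1a2 at a mean level of 395 CPM per kb, which placed it 19th among the 20015 tested genes. Glul, which encodes glutamine synthetase, followed at 315 CPM per kb. The matricellular gene Sparcl1 was next at 275 CPM per kb, then Aldoc, which encodes the brain aldolase, at 105. The classical marker Gfap, an intermediate filament gene, had only 16.5 CPM per kb, close to the water channel gene Aqp4 at 16.9 and below the gap junction gene Gja1 at 18.6. Mt2 was lowest at 1.07 CPM per kb, on 1 to 21 counts per library. Of the exonic bases of Mt2, 73.5% lie within the antisense gene Gm45774, and the counting used no strand, so its values remain uncertain. Smaller shares overlap other genes for Tril (21.4%), Fgfr3 (13.9%), Aldh1l1 (13.4%), Glul (3.07%) and Slc1a2 (1.44%). The median of the within-group SDs of the markers was 0.162 on the log2 scale, with Mt2, Mt1, Id3 and Mt3 highest at 0.454, 0.329, 0.322 and 0.321; it was 0.258 for all tested genes, which include many with far fewer counts.

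**Figure D1:**
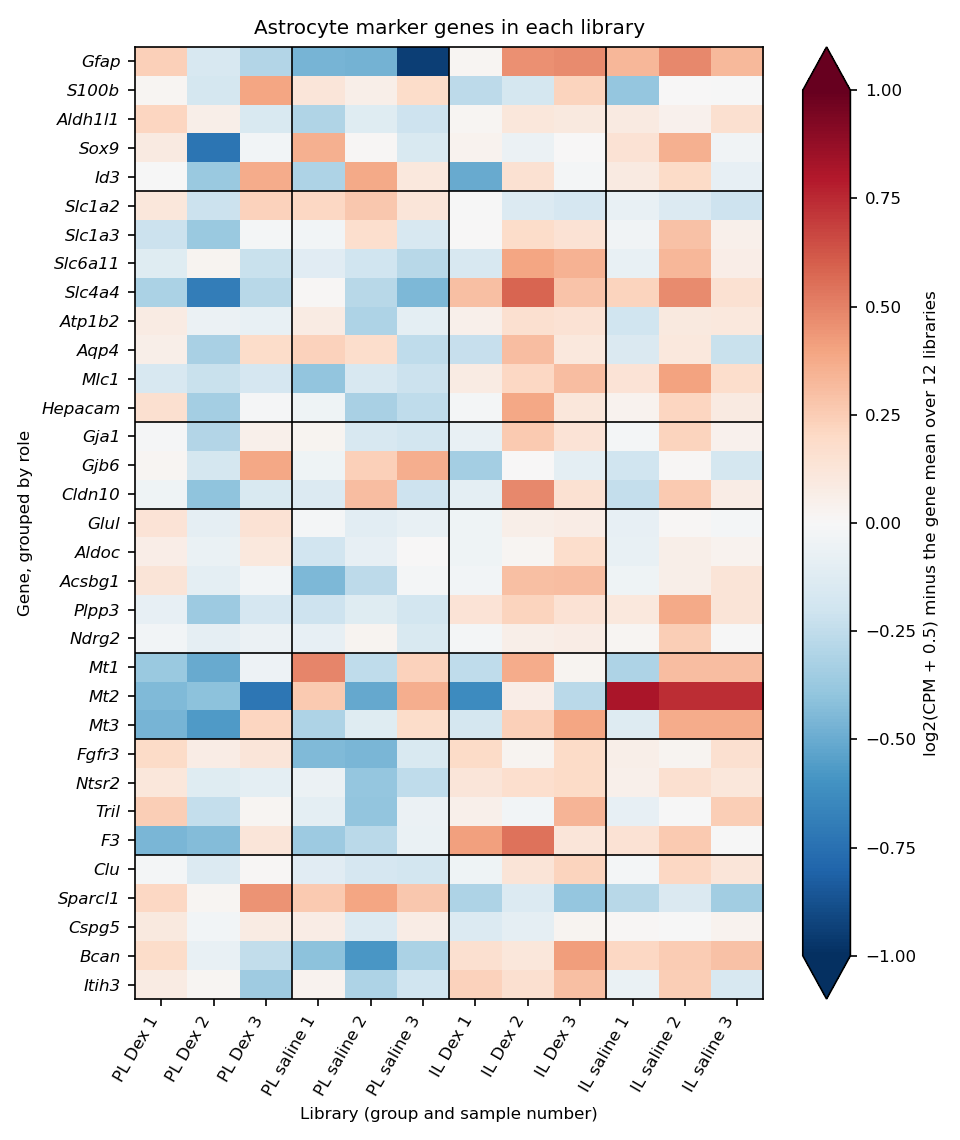
Level of each of the 33 astrocyte markers (vertical, grouped by role) in each of the 12 libraries (horizontal), as log2(CPM + 0.5) centred on the mean of that gene in all libraries. Gfap, Slc4a4, Mlc1, Plpp3 and Bcan are mostly blue in the PL libraries and red in the IL libraries, Sparcl1 shows the opposite, and no block of genes separates PL Dex from PL saline.

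The first question was whether Dex changed astrocyte transcripts in either region. In PL, 0 of 33 markers passed the threshold, an adjusted p under 0.05 in edgeR's quasi-likelihood test with Benjamini-Hochberg adjustment over all tested genes; the background was 0.02% of tested genes, 4 in all. The median log2 fold change of the markers, Dex over saline, was 0.03, against −0.0025 for all tested genes, with 18 positive and 15 negative values, where 49.7% of tested genes were positive; with the GC correction the median of the markers was −0.03, and 13 were positive. In IL, again 0 of 33 passed, against a background of 0%, with a median of 0.03 against 0.01 and 19 positive values, where 51.8% of tested genes were positive. At an unadjusted p under 0.05 there were 5 markers in PL, where 13.9% of tested genes lay below it, and 1 in IL, where 1.06% did. DESeq2 called 1 marker in PL, where it called 143 genes in all, and 0 markers in IL, where it called 0 genes. The 95% interval lay within 1.5-fold in either direction for 25 of 33 markers in PL and for 31 of 33 in IL, and within 2-fold for 32 of 33 in each, Mt2 being the exception. These intervals cover only the spread between libraries in the fit without GC correction, so they do not bound what could be missed.

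In PL, Fgfr3, Gfap and Bcan had the smallest p and were the only markers whose PL Dex and PL saline libraries did not overlap. All 3 were higher in Dex; among tested genes 7.57% were higher and 6.82% lower without overlap. Each became smaller once GC content was corrected for, and none of the 3 passed in that fit. Leaving out PL Dex 3 instead put all 3 past the threshold, in a fit that called 1484 genes, against 4 with all libraries.

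Among the identity genes, Gfap encodes the filament protein used to stain astrocytes. It had 78.6, 59.4 and 54.2 CPM in PL Dex, 48, 47.9 and 34.4 in PL saline, 67.3, 91.7 and 92.7 in IL Dex and 84, 93.2 and 83.4 in IL saline. Each PL Dex library exceeded each PL saline library, whereas the IL groups overlapped. Its log2 fold change in PL was 0.56 (SE 0.158, 95% interval 0.23 to 0.89, edgeR adjusted p = 0.197), with differences of 0.71, 0.31 and 0.65 within batches 1, 2 and 3. With the GC correction it was 0.35 (edgeR adjusted p = 0.841), without PL Dex 3 it was 0.68 (edgeR adjusted p = 0.0238), and with both it was 0.41 (edgeR adjusted p = 0.409). In IL the log2 fold change of Gfap was −0.05 (SE 0.151, edgeR adjusted p = 1). Aldh1l1, which encodes a folate dehydrogenase that labels nearly all astrocytes, had 43.1, 38.6 and 33.2 CPM in PL Dex, 29.9, 34 and 32 in PL saline, 37.6, 40.1 and 39.8 in IL Dex and 39.4, 38.2 and 41.4 in IL saline. PL Dex 1 was the highest library of all and PL Dex 3 fell inside the PL saline range. Aldh1l1 had a log2 fold change of 0.26 in PL (SE 0.124, edgeR adjusted p = 0.356; 0.08 with the GC correction) and −0.02 in IL (SE 0.12, edgeR adjusted p = 1). The calcium-binding protein gene S100b and the transcription factor genes Sox9 and Id3 had log2 fold changes of −0.02, −0.27 and −0.06 in PL and of 0.07, −0.17 and −0.16 in IL, and none passed; with the GC correction Id3 was −0.26 in PL.

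Among the transporters and channels, Slc1a2, which encodes the main glutamate transporter GLT-1, had 5571, 4430.4 and 6058 CPM in PL Dex, 5960.4, 6201 and 5612 in PL saline, 5140.4, 4689 and 4588 in IL Dex and 4890.3, 4676 and 4461 in IL saline. Within PL Dex the libraries ran from the lowest to the second highest of all 12, and both treatment pairs overlapped. The log2 fold change of Slc1a2 was −0.15 in PL (SE 0.102, 95% interval −0.36 to 0.07, edgeR adjusted p = 0.52; −0.06 with the GC correction) and 0.04 in IL (SE 0.102, 95% interval −0.17 to 0.25, edgeR adjusted p = 1). Slc1a3, which encodes the second glutamate transporter GLAST, had 423, 379 and 482 CPM in PL Dex, 479.7, 549.6 and 439 in PL saline, 490.5, 556 and 541 in IL Dex and 478, 599.7 and 507 in IL saline. Its groups overlapped in both regions, with a log2 fold change of −0.19 in PL (SE 0.113, edgeR adjusted p = 0.449; −0.12 with the GC correction) and 0.00 in IL (SE 0.113, edgeR adjusted p = 1). Aqp4, the water channel gene of the endfeet, had 108, 83.3 and 119 CPM in PL Dex, 123, 118 and 87.3 in PL saline, 88.9, 129 and 112 in IL Dex and 94.1, 112 and 89.3 in IL saline. Here too the groups overlapped, and within PL the difference changed sign between batches, at −0.18, −0.50 and 0.44 in batches 1, 2 and 3, for a log2 fold change of −0.08 (SE 0.158, edgeR adjusted p = 0.852), and 0.13 with the GC correction. In IL it was 0.16 (SE 0.156, edgeR adjusted p = 1). The other 5 are the GABA transporter gene Slc6a11, the bicarbonate cotransporter gene Slc4a4, the sodium pump subunit gene Atp1b2, and Mlc1 and Hepacam, whose products form a complex at astrocyte contacts. Their log2 fold changes in PL were 0.10, −0.19, 0.09, 0.07 and 0.16, and none passed there or in IL. With the GC correction the PL values were −0.07, −0.12, −0.03, −0.03 and 0.02, so that the signs of Slc6a11, Atp1b2 and Mlc1 turned.

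Gja1, which encodes the gap junction protein connexin 43, had 188, 155 and 196 CPM in PL Dex, 193, 169.6 and 167 in PL saline, 179, 227 and 209 in IL Dex and 187, 222 and 195 in IL saline. The groups overlapped in both regions, and its log2 fold change was 0.03 in PL (SE 0.115, 95% interval −0.21 to 0.26, edgeR adjusted p = 0.942; 0.20 with the GC correction) and 0.03 in IL (SE 0.114, 95% interval −0.21 to 0.26, edgeR adjusted p = 1). Gjb6, the connexin 30 gene, and the claudin gene Cldn10 had log2 fold changes of −0.10 and −0.21 in PL and of −0.02 and 0.15 in IL. Glul had 1309.6, 1116 and 1315 CPM in PL Dex, 1174, 1104 and 1129 in PL saline, 1151, 1241 and 1252 in IL Dex and 1123, 1200.5 and 1173 in IL saline. It had the second smallest within-group SD of the markers, 0.0824 on the log2 scale, and its log2 fold change was 0.13 in PL (SE 0.089, 95% interval −0.05 to 0.32, edgeR adjusted p = 0.504) and 0.06 in IL (SE 0.0889, 95% interval −0.13 to 0.25, edgeR adjusted p = 1). Aldoc, the acyl-CoA synthetase gene Acsbg1, the lipid phosphatase gene Plpp3 and Ndrg2, of the N-myc downstream regulated family, had log2 fold changes between −0.03 and 0.24 in PL and between −0.05 and 0.16 in IL; with the GC correction the PL values were 0.03, 0.05, −0.07 and −0.13.

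Metallothioneins bind zinc and copper, and Mt1 and Mt2 are induced by glucocorticoids and metals. Their log2 fold changes were all negative in both regions, and none passed. Mt1 had 18, 16.4 and 22.6 CPM in PL Dex, 33.1, 19.6 and 27.5 in PL saline, 19.6, 30.5 and 23.9 in IL Dex and 18.8, 29.1 and 29.1 in IL saline. PL Dex 3 fell inside the PL saline range, and the log2 fold change was −0.48 in PL (SE 0.216, 95% interval −0.94 to −0.03, edgeR adjusted p = 0.329) and −0.06 in IL (SE 0.207, edgeR adjusted p = 1). Mt3, the brain form, had 43.3, 40.3 and 69.8 CPM in PL Dex, 48.4, 54.9 and 68 in PL saline, 53.1, 70.7 and 78.8 in IL Dex and 54.9, 77.5 and 77.5 in IL saline. PL Dex 3 was again apart, above all PL saline libraries while PL Dex 1 and 2 were below them, and the log2 fold change was −0.16 in PL (SE 0.214, edgeR adjusted p = 0.76) and −0.05 in IL (SE 0.207, edgeR adjusted p = 1). Mt3 has the highest GC content of the markers, 62.3%. When PL Dex 3 was left out and GC content corrected, 48 genes passed in PL, and Mt3 was the only marker among them. Its value was −0.81 (edgeR adjusted p = 0.04), against −0.44 (edgeR adjusted p = 0.869) with the correction on all libraries. Mt2 was counted 2, 2 and 1 times in PL Dex, 5, 2 and 7 times in PL saline, 1, 4 and 4 times in IL Dex, and 15, 18 and 21 times in IL saline. Depth differed as well, with library totals of 5419187 to 10874464 counts in IL Dex and 10603069 to 16530596 in IL saline. In CPM, Mt2 averaged 0.233 in PL Dex, 0.613 in PL saline, 0.382 in IL Dex and 1.28 in IL saline. It was the single marker whose IL Dex and IL saline libraries did not overlap, lower in Dex; 3.98% of tested genes were lower and 3.8% higher without overlap. Its log2 fold change was −1.68 in IL (SE 0.583, 95% interval −2.90 to −0.47, edgeR adjusted p = 1) and −1.33 in PL (SE 0.757, 95% interval −2.91 to 0.25, edgeR adjusted p = 0.434).

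Fgfr3 encodes a growth factor receptor that astrocytes keep into adulthood. It had 87.7, 80.8 and 83.8 CPM in PL Dex, 56.5, 56 and 69.2 in PL saline, 88, 78.3 and 88 in IL Dex and 80.1, 78.2 and 85.8 in IL saline. The 3 PL saline libraries were the lowest of the 12, and PL Dex lay within the range of the IL libraries. The log2 fold change of Fgfr3 in PL was 0.47 (SE 0.109, 95% interval 0.25 to 0.70, edgeR adjusted p = 0.158), with 0.63, 0.53 and 0.27 within batches 1, 2 and 3. DESeq2 called it (adjusted p = 0.0131), in a fit that called 143 genes, whereas the GC correction lowered it to 0.26 (edgeR adjusted p = 0.8). In IL the value was 0.06 (SE 0.107, edgeR adjusted p = 1). The neurotensin receptor gene Ntsr2, the Toll-like receptor accessory gene Tril and the tissue factor gene F3 had log2 fold changes of 0.20, 0.20 and −0.01 in PL and of 0.05, 0.08 and 0.23 in IL; with the GC correction they were 0.08, 0.01 and 0.05 in PL. F3 had the second smallest p in IL (SE 0.158, edgeR adjusted p = 1).

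Bcan encodes brevican, a proteoglycan of the perineuronal matrix. It had 168, 141 and 124 CPM in PL Dex, 111, 98.8 and 119 in PL saline, 165, 160.4 and 198 in IL Dex and 170.5, 176 and 181 in IL saline. As with Fgfr3, the 3 PL saline libraries were the lowest, although PL Dex 3 exceeded PL saline 3 only slightly. The log2 fold change of Bcan was 0.40 in PL (SE 0.118, 95% interval 0.15 to 0.64, edgeR adjusted p = 0.204), with 0.59, 0.51 and 0.07 within batches 1, 2 and 3, and −0.01 in IL (SE 0.116, edgeR adjusted p = 1). The transcript holds 60.7% GC, and with the GC correction the PL value was 0.11 (edgeR adjusted p = 0.9). The chaperone gene Clu, Sparcl1, the proteoglycan gene Cspg5 and Itih3, whose product binds hyaluronan, had log2 fold changes between −0.07 and 0.11 in PL and between −0.08 and 0.22 in IL; with the GC correction Clu, Cspg5 and Itih3 turned to −0.09, −0.04 and −0.0042 in PL. Itih3 had the next smallest p in IL (SE 0.171, edgeR adjusted p = 1).

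**Figure D2:**
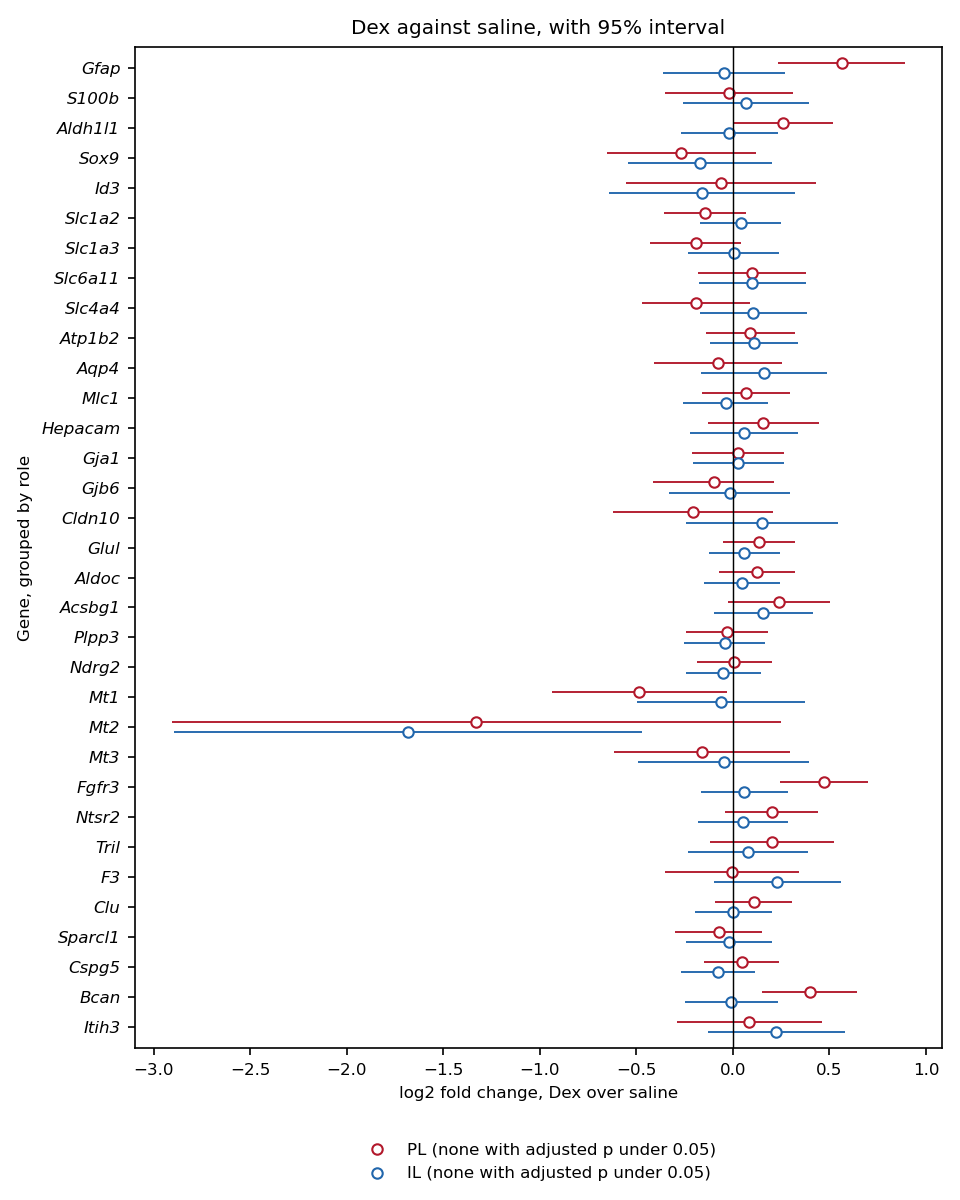
Log2 fold change, Dex over saline, of the 33 markers (vertical, grouped by role) in PL and in IL, with 95% intervals from the edgeR fit. All circles are open because no marker passed an adjusted p of 0.05; Gfap, Fgfr3 and Bcan lie furthest to the right in PL, and the wide bars belong to Mt2.

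Whether the Dex effect differed between the regions was tested as the Dex effect in PL minus that in IL. Of the 33 markers 0 passed, against a background of 0%, and 3 had an unadjusted p under 0.05, against 6.73% of tested genes. DESeq2 also called 0. Those 3 were Gfap at 0.61 (SE 0.218, edgeR adjusted p = 0.716), Fgfr3 at 0.41 (SE 0.153, edgeR adjusted p = 0.716) and Bcan at 0.41 (SE 0.165, edgeR adjusted p = 0.716), or 0.40, 0.20 and 0.14 with the GC correction. The median over the markers was 0.01, against 0.00024 for all tested genes, and 17 were positive, where 50% of tested genes were; with the GC correction the median was −0.06, and 10 were positive. The intervals were wide here: they lay within 1.5-fold for 19 of 33 markers.

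The second question was how astrocyte transcripts differ between PL and IL. In saline mice 9 of 33 markers passed the threshold, or 27.3%, against a background of 18.7% of tested genes; 2 rose in PL relative to IL (Sparcl1 and Slc1a2), against 9.97% of tested genes, and 7 fell (Gfap, Bcan, Slc4a4, Mlc1, Fgfr3, Plpp3 and Ntsr2), against 8.7%. In Dex mice 5 of 33 passed, or 15.2%, against 7.34%; Sparcl1 rose, against 3.8% of tested genes, and Slc4a4, F3, Mlc1 and Plpp3 fell, against 3.54%. The median log2 fold change of the markers, PL over IL, was −0.19 in saline mice, against −0.02 for all tested genes, and −0.19 in Dex mice, against −0.01; with the GC correction the medians of the markers were −0.08 in saline mice and −0.18 in Dex mice. In each comparison 7 of 33 values were positive, where 48.6% of tested genes were in Dex mice and 47.7% in saline mice. At an unadjusted p under 0.05 there were 9 markers in Dex mice, where 19.8% of tested genes lay below it, and 16 in saline mice, where 32.6% did. The groups did not overlap for 13 markers lower and 3 higher in PL in saline mice, where 20.2% and 20.1% of tested genes did so, and for 7 lower and 1 higher in Dex mice, where 10.8% did in each direction. Summed over the 33 genes, by contrast, the level was 9446 to 11966 CPM in PL Dex, 10916 to 11649.8 in PL saline, 10514 to 10715 in IL Dex and 10049.6 to 10764 in IL saline, a sum in which Slc1a2 weighs most. Without Slc1a2, the other markers took 0.504% to 0.556% of the raw counts in PL Dex, 0.505% to 0.526% in PL saline, 0.557% to 0.626% in IL Dex and 0.562% to 0.638% in IL saline. On this raw scale every PL library lay below every IL library, but PL Dex 1 and IL Dex 1 nearly met, at 0.556% and 0.557%. On the CPM scale used for the levels, which includes the TMM factor, the regions overlapped, with PL Dex 1 above IL Dex 1. The 2 region comparisons use different libraries, and Slc4a4, Mlc1, Plpp3 and Sparcl1 passed in both, 4 of 33, against 5.52% of tested genes.

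**Figure D3:**
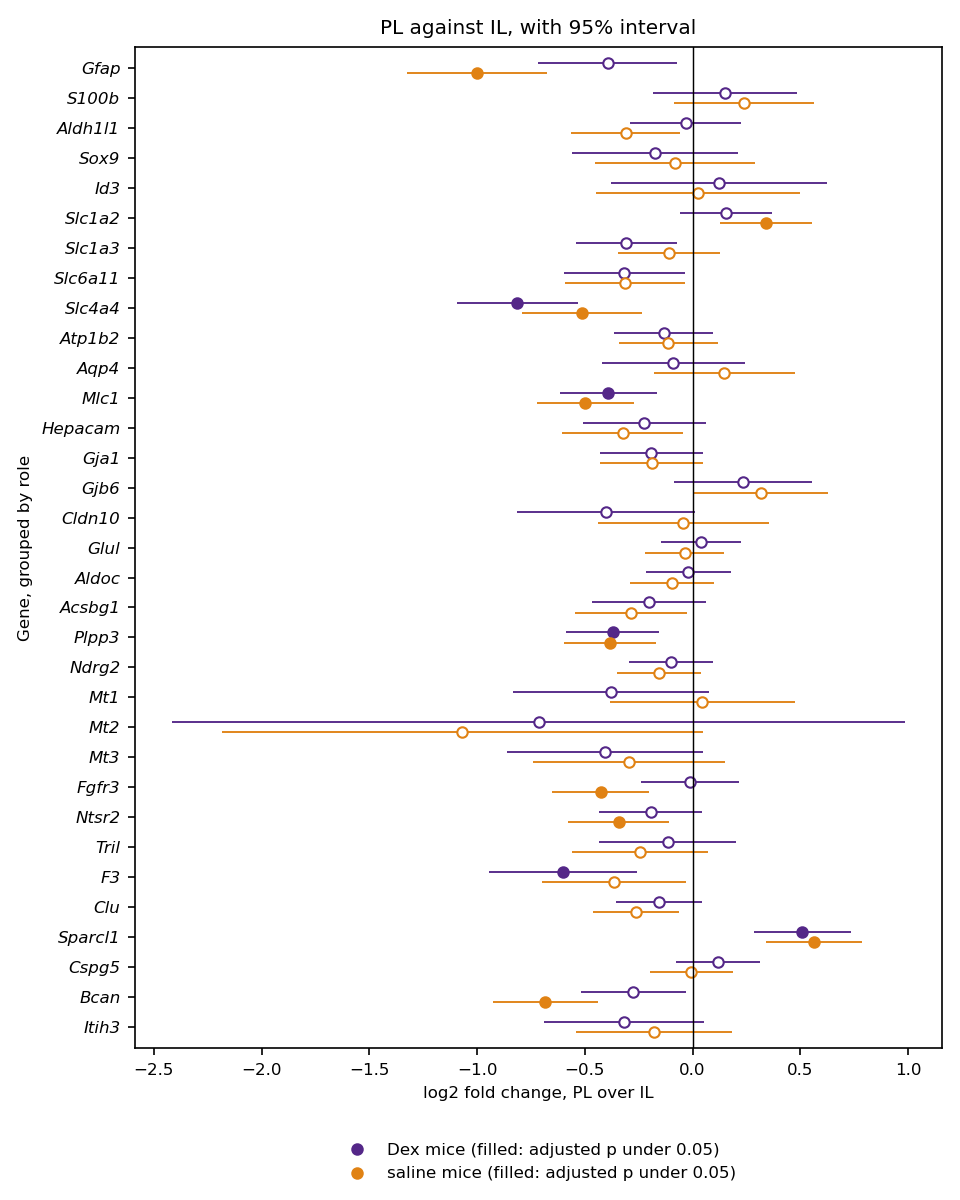
Log2 fold change, PL over IL, of the 33 markers (vertical, grouped by role) in Dex mice and in saline mice, with 95% intervals from the edgeR fit; filled circles mark an adjusted p under 0.05. Most circles lie left of 0, Sparcl1 lies right of 0 in both sets of mice, and Gfap and Bcan lie further left in saline mice than in Dex mice.

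Slc4a4, Mlc1, Plpp3 and Sparcl1 were also the 4 markers for which the 6 PL libraries did not overlap the 6 IL libraries, 1 higher and 3 lower in PL, against 5.18% and 4.6% of tested genes. The bicarbonate cotransporter gene Slc4a4 had 185, 142 and 189.8 CPM in PL Dex, 233, 189.7 and 169 in PL saline, 283, 344 and 280.4 in IL Dex and 269, 319 and 256 in IL saline. PL Dex 2 was the lowest library and IL Dex 2 the highest. Slc4a4 fell in PL with a log2 fold change of −0.81 in Dex mice (SE 0.135, edgeR adjusted p = 0.000852), with −0.62, −1.27 and −0.56 within batches 1, 2 and 3. In saline mice it fell with a log2 fold change of −0.51 (SE 0.133, edgeR adjusted p = 0.0111), with −0.21, −0.75 and −0.60 within the batches. Mlc1, named for a leukodystrophy with cysts, had 76.9, 73.4 and 76.3 CPM in PL Dex, 65.1, 76.8 and 73.9 in PL saline, 91, 99.3 and 106 in IL Dex and 94.6, 113 and 97.1 in IL saline. The 6 PL values were close together, and all lay below the lowest IL value. Its log2 fold change was −0.39 in Dex mice (SE 0.108, edgeR adjusted p = 0.0305), with −0.24, −0.43 and −0.48 within the batches, and −0.50 in saline mice (SE 0.107, edgeR adjusted p = 0.00334), with −0.54, −0.56 and −0.39.

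Plpp3, which encodes an enzyme that degrades lysophosphatidic acid, had 147, 121 and 138 CPM in PL Dex, 135, 143 and 137 in PL saline, 172, 182 and 172 in IL Dex and 168, 203 and 170.4 in IL saline. PL Dex 2 was again the lowest library, and IL saline 2 the highest. Plpp3 fell with a log2 fold change of −0.37 in Dex mice (SE 0.103, edgeR adjusted p = 0.0297), with −0.23, −0.59 and −0.31 within the batches, and −0.38 in saline mice (SE 0.102, edgeR adjusted p = 0.0126), with −0.31, −0.50 and −0.31. Sparcl1 encodes hevin, a secreted protein that promotes excitatory synapses. It had 915, 801 and 1081 CPM in PL Dex, 950.2, 1042 and 953 in PL saline, 640.3, 719.7 and 606 in IL Dex and 653, 716 and 624 in IL saline. Every PL library exceeded every IL library. Sparcl1 rose with a log2 fold change of 0.51 in Dex mice (SE 0.108, edgeR adjusted p = 0.00509), with 0.52, 0.15 and 0.83 within the batches, and 0.56 in saline mice (SE 0.107, edgeR adjusted p = 0.00135), with 0.54, 0.54 and 0.61. These calls in saline mice held with the GC correction, at −0.61 for Slc4a4, −0.40 for Mlc1, −0.35 for Plpp3 and 0.54 for Sparcl1. Sparcl1 passed in every alternative in both sets of mice, Mlc1 in every alternative in saline mice and Slc4a4 in every alternative in Dex mice. Slc4a4 lost its call in saline mice without PL saline 2, PL saline 3 or IL saline 2, and Plpp3 without IL saline 2. In Dex mice, with only the 2 groups compared, Mlc1 and Plpp3 lost their calls. In the same mice, with all groups fitted, Mlc1 also lost its call without PL Dex 1, PL Dex 2, IL Dex 2 or IL Dex 3, and Plpp3 without PL Dex 2, IL Dex 1, IL Dex 2 or IL Dex 3.

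Gfap showed the largest difference among the markers called in saline mice. Its PL saline libraries, listed above, were all below its IL saline libraries, for a log2 fold change of −1.0 (SE 0.155, edgeR adjusted p = 0.000272), with −0.80, −0.95 and −1.27 within batches 1, 2 and 3, and −0.78 with the GC correction (edgeR adjusted p = 0.0035). In Dex mice the libraries of Gfap overlapped, PL Dex 1 being above IL Dex 1, and the log2 fold change was −0.39 (SE 0.154, edgeR adjusted p = 0.145). Bcan fell in PL in saline mice as well, at −0.68 (SE 0.117, edgeR adjusted p = 0.000564), with −0.61, −0.83 and −0.61 within the batches, and −0.33 with the GC correction (edgeR adjusted p = 0.00947). In Dex mice its value was −0.28 (SE 0.117, edgeR adjusted p = 0.183). Fgfr3 fell in PL in saline mice, at −0.43 (SE 0.108, edgeR adjusted p = 0.00979), but was −0.19 with the GC correction (edgeR adjusted p = 0.19), lost the call without PL saline 2 or IL saline 3, and was −0.01 in Dex mice (SE 0.108, edgeR adjusted p = 0.973). The differences between saline and Dex mice are the interaction already given, which no marker passed.

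Slc1a2 rose in PL in saline mice, where its 3 PL libraries all exceeded the 3 IL libraries, with a log2 fold change of 0.34 (SE 0.102, edgeR adjusted p = 0.0241). The call was lost with the GC correction, at 0.23 (edgeR adjusted p = 0.108), and without PL saline 1, PL saline 2, IL saline 2 or IL saline 3. In Dex mice the value for Slc1a2 was 0.16 (SE 0.102, edgeR adjusted p = 0.437). Ntsr2 averaged 46 ± 5.39 CPM in PL saline and 58.3 ± 2.23 CPM in IL saline (SD, n = 3 each), the ninth of the calls by p, and fell with a log2 fold change of −0.34 (SE 0.113, edgeR adjusted p = 0.0389), or −0.23 with the GC correction (edgeR adjusted p = 0.166), and it lost the call with no low-count filter and without any 1 of 5 saline libraries, PL saline 1 excepted. F3 had 21.2, 21.5 and 31.9 CPM in PL Dex, 22.6, 24.2 and 27.9 in PL saline, 39, 42.8 and 31.8 in IL Dex and 32.3, 35.1 and 29.2 in IL saline. PL Dex 3 stood apart from PL Dex 1 and 2 and was level with IL Dex 3. F3 fell in PL in Dex mice with a log2 fold change of −0.60 (SE 0.165, edgeR adjusted p = 0.0286), with −0.86, −0.98 and 0.00 within batches 1, 2 and 3. Without any 1 of PL Dex 1, PL Dex 2, IL Dex 1 or IL Dex 2, or with only the 2 groups compared, F3 no longer passed.

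**Figure D4:**
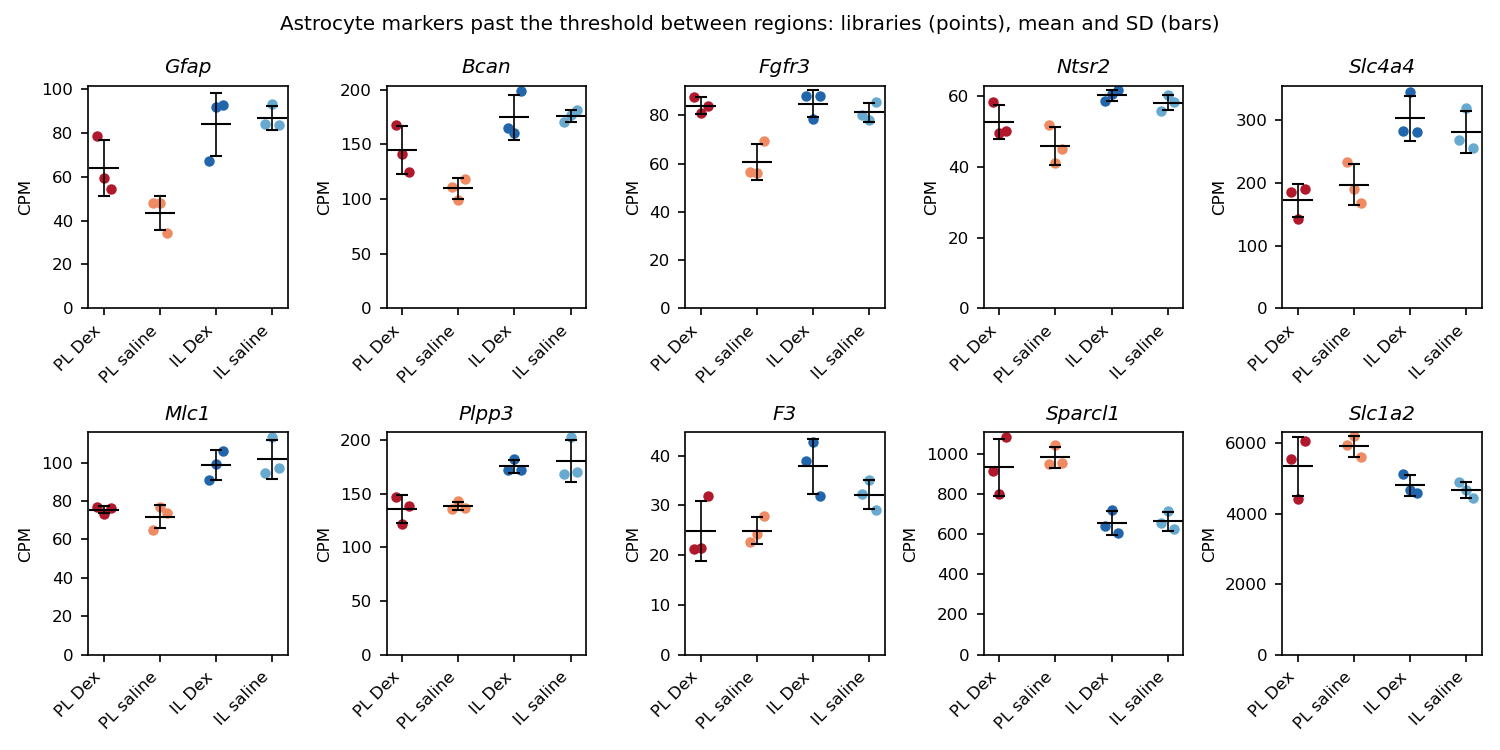
Level in CPM (vertical, from 0) of the 10 markers past the threshold in a region comparison, in PL Dex, PL saline, IL Dex and IL saline; points are libraries, and bars are the mean and SD of 3. Slc4a4, Mlc1 and Plpp3 are lower and Sparcl1 is higher in all 6 PL libraries than in all 6 IL libraries, while the PL Dex points of Gfap, Bcan and Fgfr3 lie above their PL saline points.

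Several widely used markers did not pass between the regions. Aqp4 had a log2 fold change of −0.09 in Dex mice (95% interval −0.42 to 0.24) and 0.15 in saline mice (95% interval −0.18 to 0.48), the saline value turning to −0.10 with the GC correction. Glul was 0.04 (95% interval −0.15 to 0.22) and −0.04 (95% interval −0.22 to 0.15), and Aldh1l1 −0.03 (95% interval −0.29 to 0.22) and −0.31 (95% interval −0.56 to −0.06), the last being −0.13 with the GC correction. Slc1a3 was −0.31 in Dex mice (95% interval −0.54 to −0.07) and −0.11 in saline mice (95% interval −0.34 to 0.13), or −0.21 with the GC correction. Gja1 was −0.19 and −0.19, and with the GC correction it passed in saline mice, at −0.40 (edgeR adjusted p = 0.0147); its transcript holds 42.2% GC. The metallothioneins Mt1, Mt2 and Mt3 had log2 fold changes of −0.38, −0.71 and −0.41 in Dex mice and 0.05, −1.07 and −0.29 in saline mice, and none passed; in saline mice Mt1 was 0.18 and Mt3 turned to 0.11 with the GC correction.

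**Figure D5:**
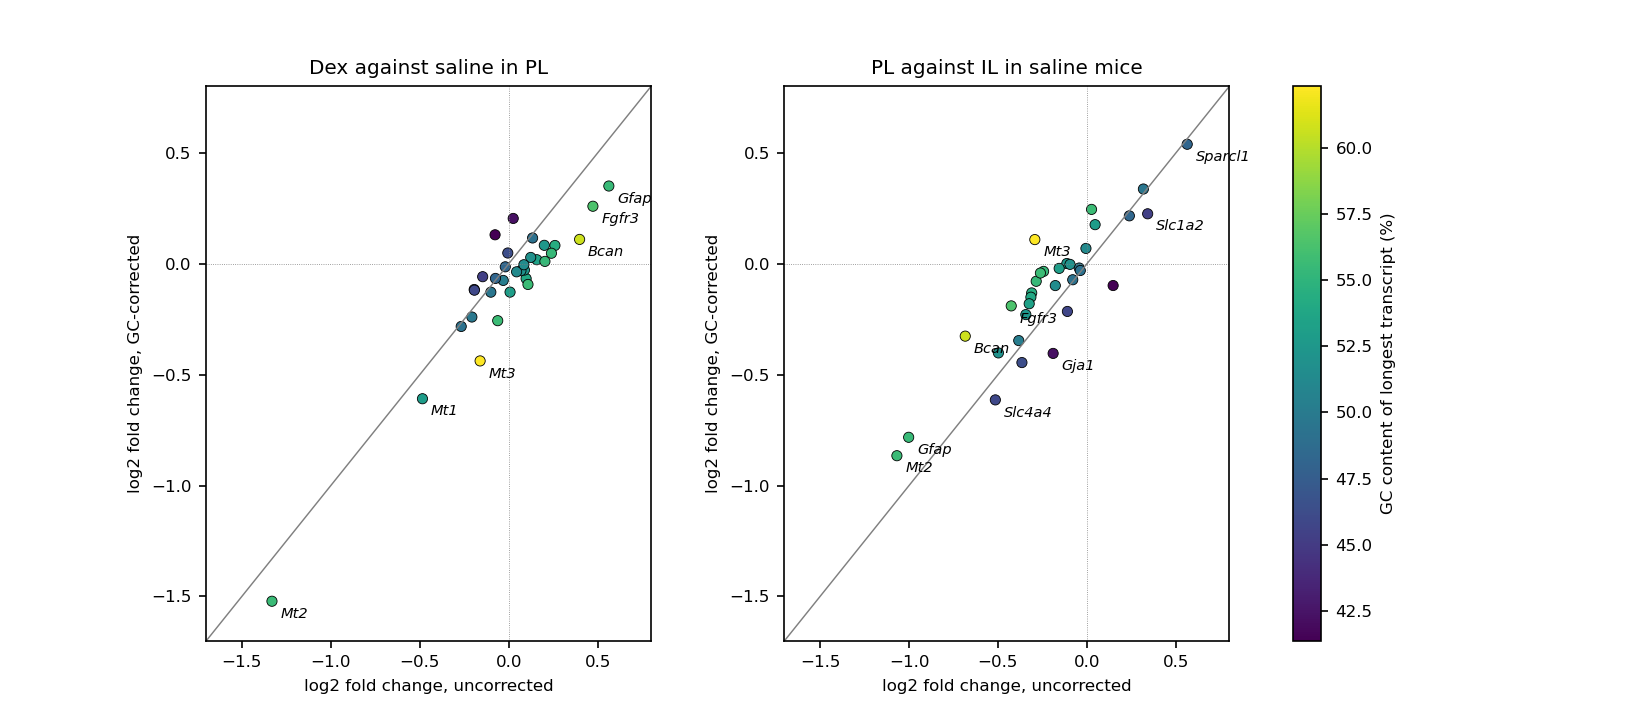
Log2 fold change of the 33 markers with the GC correction (vertical) against the uncorrected value (horizontal), for Dex over saline in PL and for PL over IL in saline mice; colour gives the GC content of the longest transcript, and the grey line marks equal values. The GC-rich markers Bcan and Fgfr3 move towards 0 in both panels while Mt3 moves away from 0 for Dex and across 0 for region, and Sparcl1 stays close to the line.

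Promoter sequence was examined for the markers that were lower in PL. The 250 bases before the RefSeq transcription start (GRCm38.p6) are shown, on the strand of the gene, for Gfap, the largest difference that passed, and for the 3 markers lower in PL in both sets of mice. Capitals mark TTGGC or its reverse complement GCCAA, the half-site of nuclear factor I (NFI) proteins, which act in astrocyte differentiation. The Gfap window is chr11:102897201-102897450, minus strand; that of Mlc1 is chr15:88978554-88978803, minus strand; that of Plpp3 is chr4:105157097-105157346, plus strand; those of the 2 starts of Slc4a4 are chr5:88887010-88887259 and chr5:89027716-89027965, plus strand.
Gfap: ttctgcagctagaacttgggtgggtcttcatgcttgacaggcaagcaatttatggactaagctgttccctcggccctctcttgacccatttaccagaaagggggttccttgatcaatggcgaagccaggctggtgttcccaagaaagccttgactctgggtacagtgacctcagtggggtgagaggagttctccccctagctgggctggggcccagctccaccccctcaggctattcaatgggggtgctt
Mlc1: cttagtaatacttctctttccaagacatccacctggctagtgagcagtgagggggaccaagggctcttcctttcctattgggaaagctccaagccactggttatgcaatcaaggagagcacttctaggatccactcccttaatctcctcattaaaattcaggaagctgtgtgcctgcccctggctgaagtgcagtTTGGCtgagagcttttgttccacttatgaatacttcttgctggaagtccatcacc
Plpp3: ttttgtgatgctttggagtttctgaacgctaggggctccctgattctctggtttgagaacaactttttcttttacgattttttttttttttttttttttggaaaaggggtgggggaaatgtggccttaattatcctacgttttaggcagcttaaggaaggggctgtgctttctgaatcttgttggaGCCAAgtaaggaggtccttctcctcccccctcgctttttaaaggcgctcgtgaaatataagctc
Slc4a4, first start: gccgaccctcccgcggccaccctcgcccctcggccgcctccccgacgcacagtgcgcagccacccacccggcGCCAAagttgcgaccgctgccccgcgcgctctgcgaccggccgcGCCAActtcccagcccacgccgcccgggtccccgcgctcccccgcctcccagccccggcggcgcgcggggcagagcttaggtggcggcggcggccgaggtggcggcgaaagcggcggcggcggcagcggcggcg
Slc4a4, second start: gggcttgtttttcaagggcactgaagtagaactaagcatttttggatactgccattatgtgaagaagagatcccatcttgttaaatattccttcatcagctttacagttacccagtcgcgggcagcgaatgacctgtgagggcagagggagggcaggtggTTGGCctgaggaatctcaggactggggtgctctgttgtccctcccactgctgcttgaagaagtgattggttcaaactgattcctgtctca
The half-site occurred 1 time in each of the windows of Mlc1 and Plpp3, 2 times and 1 time in the windows of Slc4a4, and 0 times in that of Gfap. A window was found for 27 of the 33 markers, and 14 of the 27 held the half-site on either strand, against 41.9% of 27025 RefSeq promoter windows of the same length. The SOX core motif ACAAT, searched on both strands, was held by 4 of 27, against 28.3% of all windows. A match of so few letters is a description of the sequence only.

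Other astrocyte genes were followed in 5 related lists with 73 tested genes. Values for these lists, and for the markers of other cells below, are from the fit without the GC correction. GC-corrected values were not taken for them, so the relation to GC content in PL saline comparisons given above remains in these values. None of the 73 genes passed for Dex in PL or IL, nor for the difference between them. As values without a call, the most abundant member was taken from 4 of the lists for Dex over saline: the lipid carrier gene Apoe had a log2 fold change of 0.17 in PL and −0.08 in IL, Dmd −0.21 and −0.06, Vim 0.25 and −0.20, and Slc39a10 0.05 and 0.14. Between the regions, 21 of 73 passed in saline mice, 5 higher and 16 lower in PL, where 18.7% of tested genes passed, 9.97% higher and 8.7% lower. In Dex mice 10 of 73 passed, 4 higher and 6 lower, where 7.34% of tested genes did, 3.8% higher and 3.54% lower. Most came from a list of 38 further astrocyte genes, of which 1 was higher and 12 were lower in PL in saline mice and 0 were higher and 6 lower in Dex mice. The median log2 fold change of that list was −0.24 in Dex mice and −0.36 in saline mice. In Dex mice the 4 with the smallest p were Gldc, which encodes the glycine decarboxylase, at −0.92 (edgeR adjusted p = 0.000419), the NMDA receptor subunit gene Grin2c at −0.79 (edgeR adjusted p = 0.00465), the fatty acid binding protein gene Fabp7 at −0.93 (edgeR adjusted p = 0.0058) and the BMP receptor gene Bmpr1b at −0.80 (edgeR adjusted p = 0.00956). In saline mice they were the fatty acid transporter gene Slc27a1 at −0.71 (edgeR adjusted p = 0.000481), Grin2c at −0.93 (edgeR adjusted p = 0.000706), Gldc at −0.69 (edgeR adjusted p = 0.00214) and Cbs, which encodes cystathionine beta-synthase, at −0.70 (edgeR adjusted p = 0.00291).

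Among all tested genes, 7.34% passed between the regions in Dex mice and 18.7% in saline mice. Of 6 endfoot scaffold genes, 1 passed in Dex mice and 3 in saline mice. The dystrophin gene Dmd rose in PL in both sets of mice, at 0.47 in Dex mice (edgeR adjusted p = 0.00664) and 0.63 in saline mice (edgeR adjusted p = 0.000425), although neurons also transcribe it. The agrin gene Agrn was 1 of 2 that fell in saline mice, at −0.49 (edgeR adjusted p = 0.0116). Of 15 tested genes linked to reactive astrocytes, 1 passed in Dex mice and 3 in saline mice. These shares, 6.67% and 20%, were near those of all tested genes. The hyaluronan receptor gene Cd44 rose in both sets of mice, at 1.11 (edgeR adjusted p = 0.0445) and 1.19 (edgeR adjusted p = 0.00941), while Vim, another intermediate filament gene, and Cd109 fell in saline mice, at −0.72 (edgeR adjusted p = 0.00316) and −1.94 (edgeR adjusted p = 0.0121). Cd109 and Cd44 were low, at means of 1.53 and 4.83 CPM over the 12 libraries, on 179 and 498 counts. Of 6 genes of zinc handling and oxidative response, only the zinc transporter gene Slc39a10 passed, higher in PL at 0.99 in Dex mice (edgeR adjusted p = 0.000072) and 1.08 in saline mice (edgeR adjusted p = 0.0000163).

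Markers of other cells also moved with region, and their part in the marker differences was not tested. Of their 76 tested genes, 22 passed in saline mice and 14 in Dex mice. These shares were 28.9% and 18.4%, against 27.3% and 15.2% of the astrocyte markers. In saline mice the median log2 fold change was −0.17 for oligodendrocyte, −0.23 for oligodendrocyte precursor and −0.14 for microglia markers. For neuron and endothelial markers it was positive, at 0.35 and 0.05. Of 17 neuron markers, 6 rose and 3 fell in PL in Dex mice, where 3.8% of tested genes rose and 3.54% fell, and 7 rose and 2 fell in saline mice, where 9.97% rose and 8.7% fell. The pyramidal neuron gene Neurod6 averaged 81.1 ± 24.6 CPM in PL Dex and 25.2 ± 3.96 in IL Dex, and 108 ± 4.17 in PL saline and 25.6 ± 0.775 in IL saline (SD, n = 3 each). Slc32a1, the vesicular GABA transporter gene, averaged 35 ± 5.26 CPM in PL Dex and 78.4 ± 7.5 in IL Dex, and 31.7 ± 11.1 in PL saline and 76.7 ± 8.73 in IL saline. The summed level of the neuron markers was 11205 to 13508 CPM in PL Dex, 12239.7 to 12836 in PL saline, 9543 to 10467 in IL Dex and 9044 to 9972 in IL saline, so that PL was higher in every library. Genes of the ventricular lining and neurogenic zone, whose cells share markers with astrocytes, moved too. In Dex mice 2 of 6 tested ependymal and choroid genes and 3 of 6 neurogenic genes fell in PL, where 3.54% of tested genes did, and in saline mice 3 of 6 and 5 of 6, where 8.7% did. The ciliary gene Ccdc153 had 0 counts in the 3 PL saline libraries, which allows up to 0.454, 0.35 and 0.361 CPM, and averaged 3.83 ± 0.739 CPM in IL saline. Summed neurogenic zone genes were 141 to 166 CPM in PL Dex, 155 to 179 in PL saline, 226 to 312 in IL Dex and 226 to 279 in IL saline, with no overlap between regions.

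Of 10 oligodendrocyte markers, 0 passed in any of the 5 comparisons, and their sum ranged most within PL Dex, at 1929 to 5148 CPM, against 2766 to 3695 in PL saline, 3255 to 3739.8 in IL Dex and 3156 to 3990.1 in IL saline. For Dex against saline, 0 of the 76 tested markers of other cells passed in PL or IL.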

How the data were processed

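The deposited values are raw read counts per gene, whole numbers without normalization. Per the file headers, the authors counted read pairs over the exons of each gene with featureCounts 2.0.1, set no strand option and used the GRCm38 release 98 annotation. The submitters' processing notes also list bcl2fastq, Trim Galore, HISAT2, SAMtools 1.8 and the build mm39; coordinates given here are GRCm38, as in the count table. Without strand, a gene and its antisense neighbour cannot be told apart. A further 12 count columns matched no labelled sample and were not used.

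The tests used edgeR 4.0.16 under R 4.3.3: filterByExpr on the 4 groups, TMM scaling, and robust quasi-likelihood fitting of 1 mean per group over all 12 libraries (common biological coefficient of variation 0.143). Dex was compared with saline within PL and within IL, these effects with each other, and PL with IL within Dex and within saline mice, 5 comparisons in all. P-values are two-sided and adjusted over 20015 genes by the Benjamini-Hochberg method, with a threshold of 0.05. CPM per kb divides by the union of exons of a gene. Alternatives were RLE scaling, DESeq2 1.42.0, no low-count filter, a GC correction (a lowess curve of span 0.3 per library on the GC content of the longest transcript, used as an offset), the batch number as a replicate block, the 2 compared groups alone and leaving out each library; the GC correction without PL Dex 3 was added after seeing the data. The code was tested on simulated data.

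The labels call the sample number a batch, so same-numbered libraries were paired for the differences within batches. The tests reported did not pair them, and the number entered only in the replicate block alternatives. The correlation of same-numbered deviations was 0.0141 to 0.126 between PL Dex and PL saline, 0.299 to 0.347 between IL Dex and IL saline, 0.0311 to 0.213 between regions in saline mice and −0.0979 to 0.0385 in Dex mice. No 2 libraries of a group agreed within sampling noise (chi-square per degree of freedom 3.85 to 14.5).

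The markers and all gene lists were chosen with earlier results of these data known. Given in full were markers past the threshold, at most 8 per comparison, with Gfap, Aqp4, Slc1a2, Slc1a3, Aldh1l1, Gja1, Glul, Mt1, Mt2 and Mt3 whatever their values; where none passed, the 3 with the smallest p. Of the related lists, up to 4 genes past the threshold are named, and some results for these lists are not reported here. Promoter windows are from the RefSeq table of GRCm38.p6.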

Additional observations from a re-analysis of the deposited data

How the results depend on the processing

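Low counts limit some markers, Mt2 most, with 82 counts over the 12 libraries. With 3 libraries a group, a single library can decide a call. The number of markers past the threshold for Dex in PL was 0, but 1 with DESeq2 (Fgfr3), 2 with no low-count filter (Gfap and Fgfr3), 0 to 3 over the fits that leave out 1 library, and 1 with the GC correction without PL Dex 3 (Mt3). The number of all genes past it there, 4, was 0 with RLE scaling, 143 with DESeq2, 193 with no filter, 1 with the GC correction, 2 with the replicate block and GC correction, 0 with the 2 groups alone, 48 with the GC correction without PL Dex 3, and 0 to 1484 when 1 library was left out, the high value without PL Dex 3. With no filter, 3 genes passed for Dex in IL and 4 for the interaction, where leaving out 1 library gave 0 to 144, the high value without PL Dex 3; in each of these fits 0 markers passed. Between regions in saline mice, 9 markers and 3737 genes passed in the fit reported. With the 2 groups alone, 14 markers and 4849 genes passed. When 1 library was left out, 5 to 8 markers and 1842 to 3190 genes did. In Dex mice, 5 markers and 1469 genes passed in the fit reported, and 2 markers and 1049 genes with the 2 groups alone. When 1 library was left out, 2 to 7 markers and 783 to 1728 genes passed. With the replicate block and GC correction, 6 markers and 2343 genes did. The replicate block alone changed no count of markers past the threshold, at 0, 0, 0, 9 and 5 over the 5 comparisons, and gave 3, 0, 0, 4180 and 1728 genes. With the GC correction 7 markers and 2544 genes passed in saline mice. Of the markers, Slc1a2, Fgfr3 and Ntsr2 were lost and Gja1 was gained. Of 2407 values of the 33 markers under an alternative, 36 lost a call and 24 gained one, and 212 had the other sign, 0 of which passed with either setting. The sign changes of the markers given in full were these. For Dex in PL, Aqp4 was 0.13 with the GC correction, 0.14 with the replicate block added and 0.076 with the correction without PL Dex 3. For Dex in IL, Slc1a3 was −0.011 with no filter, −0.023 with the GC correction and −0.022 with the block added. The interaction of Gja1, −0.0021 with the fit reported, was 0.00022 with RLE scaling, 0.021 with no filter, 0.20 with the GC correction, 0.20 with the block added and 0.18 with the correction without PL Dex 3. Between regions in saline mice, the GC correction gave −0.10 for Aqp4 and 0.11 for Mt3, and −0.095 and 0.11 with the block added. In Dex mice, the correction without PL Dex 3 gave 0.025 for Aldh1l1 and −0.0018 for Glul. Leaving out 1 library gave ranges for Dex in PL of −0.21 to 0.068 (Aqp4) and −0.037 to 0.13 (Gja1); for Dex in IL of −0.13 to 0.085 (Gfap), −0.046 to 0.014 (Aldh1l1), −0.012 to 0.072 (Slc1a2), −0.064 to 0.10 (Slc1a3), −0.053 to 0.11 (Gja1), −0.24 to 0.067 (Mt1) and −0.19 to 0.093 (Mt3); for the interaction of −0.086 to 0.10 (Gja1), −0.056 to 0.72 (Mt2) and −0.40 to 0.040 (Mt3); and between regions of −0.13 to 0.23 (Mt1, saline mice), −0.12 to 0.069 (Aldh1l1, Dex mice) and −0.22 to 0.054 (Aqp4, Dex mice). The cause of these changes was not tested.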
